A study of Mus musculus with 14 samples.

Results

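Pericentral hepatocytes are the liver cells that line the central veins, and 10 genes that mark them and depend on Wnt signalling are described here in livers whose floxed Lmna was targeted by a hepatocyte Cre. The genes are Glul, Rhbg, Slc1a2, Oat, Axin2, Lgr5, Tbx3, Avpr1a, Cyp2e1 and Cyp1a2. They were chosen by symbol, each was read from the probe set with 1 symbol that was brightest on average over all arrays, and all 10 were measured, out of 22180 genes on the array. The study profiled livers from 14 male C57BL/6 animals on an array each, and every mouse carried Alb-Cre, a transgene whose albumin promoter drives Cre recombinase in hepatocytes. WT stands for LMNA +/+ livers (2 mice, on chow), HET for LMNA flx/+ and KO for LMNA flx/flx, and there were 3 HET and 3 KO mice on chow. A further 3 HET and 3 KO mice received HFD, here the Surwit high-fat diet with 42 g/L of carbohydrate in the water (55% fructose, 45% sucrose), for 14 weeks. The mice were 24.6 and 27 weeks old in WT, 24 to 26.4 weeks in HET on chow, 38.9 weeks in KO on chow, 30 to 30.4 weeks in HET on HFD and 35.3 weeks in KO on HFD. The mean age of KO mice exceeded that of HET mice by 13.3 weeks among chow-fed and by 5.17 weeks among HFD-fed animals, so genotype came with age in every KO comparison.

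Hepatocytes differ along the axis from the portal to the central vein. Endothelial cells of the central vein release Wnt ligands and R-spondin, which stabilise beta-catenin in the hepatocytes beside them and switch on a pericentral set of genes. That set takes up leftover ammonia and glutamate, makes glutamine, and holds many cytochrome P450 enzymes. The Cre transgene is aimed at hepatocytes, and Lmna was not measured by cell type.

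The members did not move as a block. Rhbg, the ammonia channel, was 7.26-fold higher in KO than in HET livers over both diets, while Avpr1a, the vasopressin receptor, was 2.90-fold lower and Slc1a2, a glutamate transporter, 1.55-fold lower. Glul, the glutamine synthetase that is the classic pericentral marker, did not pass the test in any comparison, and neither did Oat, Axin2, Lgr5, Tbx3, Cyp2e1 or Cyp1a2. All levels below are log2 intensities. Changes are given as group mean minus group mean ± the standard error that limma estimated, and calls required an adjusted p under 0.05 over the 22180 genes. For KO against HET over both diets 3 of the 10 members were called, where 9.43% of all genes were. On HFD alone 2 of 10 were called, against 7.56% of all genes, and on chow 1 of 10, against 1.92%. Against WT on chow 1 of 10 was called, against 1.65% of all genes. Precision is limited by the small groups, of 2 or 3 arrays each.

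Lmna was read by a probe set of low intensity. On chow it stood at 4.43 and 4.50 in WT, 4.25 to 4.40 in HET and 3.67 to 4.09 in KO livers. On HFD it stood at 4.07 to 4.30 in HET and 3.90 to 4.07 in KO livers, so the ranges overlapped. KO minus HET was not called on chow (-0.47 ± 0.12, adjusted p = 0.0823) or on HFD (-0.16 ± 0.12, adjusted p = 0.517). Lmna was called lower over both diets (-0.31 ± 0.09, adjusted p = 0.0386) and against WT on chow (-0.62 ± 0.14, adjusted p = 0.0393). The labelled tissue matched its markers, since the 8 measured hepatocyte markers averaged 11.93 to 12.20 in all 14 arrays. On HFD 3 of these 8 (Apob, Apoa1 and Hnf4a) were lower in KO livers, calls that a second quantile normalization ended, and the list averaged 11.93 to 11.97 in KO against 12.13 to 12.20 in HET livers. The list's mean on chow was 12.06 to 12.11 in KO and 12.06 to 12.13 in HET livers. In bulk liver, fewer hepatocytes and less RNA per hepatocyte cannot be told apart. Macrophage markers averaged 7.001 to 7.16 in KO and 6.32 to 6.67 in HET livers on HFD (2 of 10 higher, 1 lower). Endothelial markers averaged 7.04 to 7.12 and 7.01 to 7.07 (0 of 14 higher, 1 lower), and stellate cell markers 6.47 to 6.66 and 6.26 to 6.44 (2 of 12 higher, 2 lower). Of the 5 cholangiocyte markers and the 8 lymphocyte markers none was called on HFD, with 4 and 6 of them dim (mean under 4), and the lists averaged 3.42 to 4.06 and 3.81 to 4.03 in KO against 3.23 to 3.33 and 3.23 to 3.47 in HET livers. On chow macrophage markers averaged 6.35 to 6.84 in KO and 6.01 to 6.53 in HET livers (2 of 10 higher, 1 lower) and cholangiocyte markers 3.45 to 4.18 and 3.13 to 3.45 (0 of 5 called). Endothelial markers there averaged 6.94 to 6.998 and 6.72 to 6.86 (0 of 14 called), stellate cell markers 6.27 to 6.48 and 6.01 to 6.74 (0 of 12 higher, 1 lower) and lymphocyte markers 3.29 to 3.49 and 3.04 to 4.05 (0 of 8 called). The part of these other cells in the members' values was not tested. Centring each array on the median of its 22180 genes, the gene median, moved all KO minus HET differences by -0.12 on chow and by -0.22 on HFD. The size and the calls of small differences on HFD thus depend on the scaling. Negative values there became more negative, and among the members only Glul changed sign (0.05 to -0.17).

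**Figure D1:**
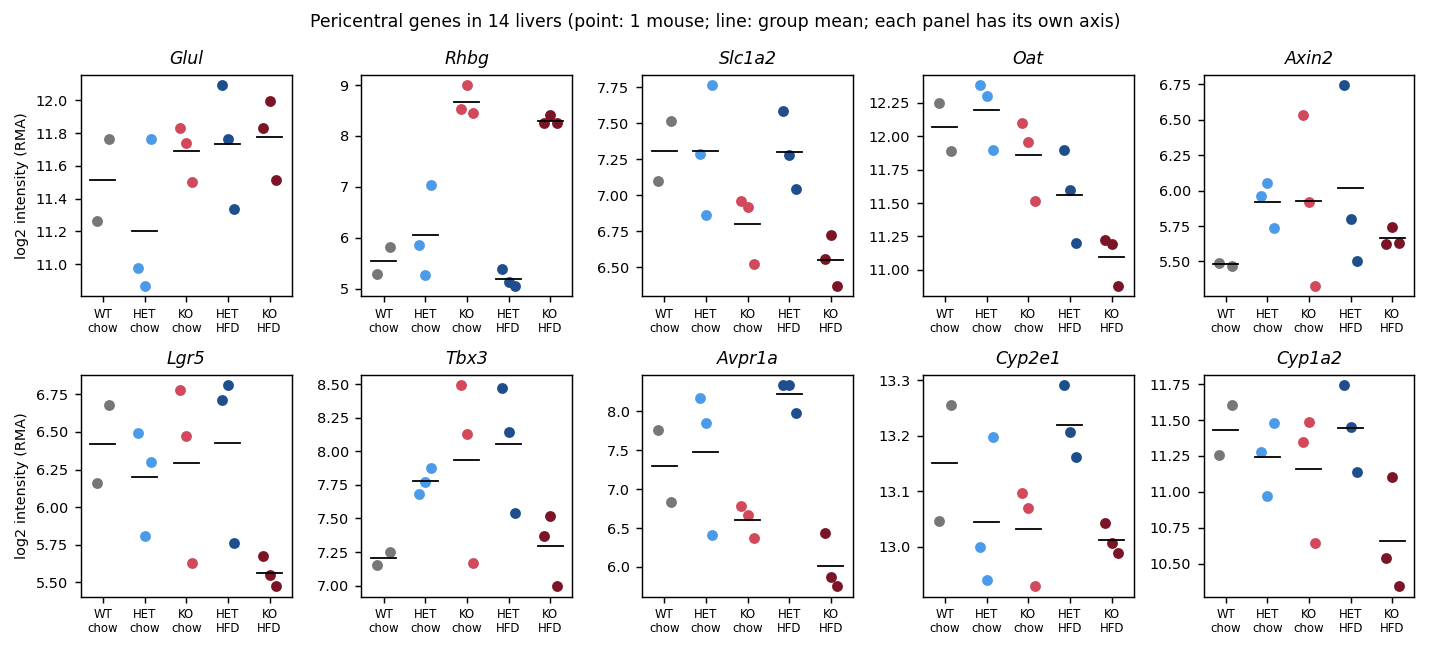
Log2 intensity (vertical axis, its own range in each panel) of the 10 pericentral genes in the 14 livers, by genotype and diet; a point is 1 mouse and a line the group mean. All 6 KO livers lie above the 8 others for Rhbg (8.25 to 9.01 against 5.05 to 7.04), while the groups overlap for Glul.

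Rhbg encodes a membrane channel that lets ammonia into pericentral hepatocytes. On chow it read 5.28 and 5.82 in WT livers, 5.87, 5.27 and 7.04 in HET livers F1, F2 and P1, and 8.53, 9.01 and 8.45 in KO livers H1, H2 and I1. On HFD it read 5.39, 5.13 and 5.05 in HET livers A2, B1 and B2, and 8.25, 8.41 and 8.25 in KO livers C2, C3 and C4. Every KO liver was above every other liver, and the lowest KO value exceeded the highest other value, that of HET P1, by 1.21. The rise against HET was 2.61 ± 0.33 on chow (adjusted p = 0.00119), or 6.10-fold, and 3.11 ± 0.33 on HFD (adjusted p = 1.63e-04), or 8.64-fold. Against WT on chow it was 3.11 ± 0.37 (adjusted p = 7.99e-04). Over both diets it was 2.86 ± 0.24 (adjusted p = 1.12e-05), and the genotype effect was not shown to differ by diet (interaction 0.50 ± 0.47, 95% interval -0.52 to 1.53, adjusted p = 0.769). An age term, which nearly coincides with group, moved the rise to 8.31 on chow and 5.33 on HFD, both still called. Within HET livers the HFD minus chow difference was -0.87 ± 0.33 (adjusted p = 0.39). It rested on the chow liver P1, without which it was -0.37 (adjusted p = 0.563). Without F1 and F2 it was -1.85 and was called (adjusted p = 0.0262), but HET on chow was then P1 alone, 1 array assumed to vary like the other groups. With age as a linear term it turned to 1.08 (adjusted p = 0.457).

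Avpr1a encodes the receptor through which vasopressin raises calcium in hepatocytes. On HFD it read 8.34, 8.34 and 7.98 in HET livers and 6.44, 5.86 and 5.75 in KO livers, so the groups lay apart. The fall on HFD was -2.20 ± 0.38 (adjusted p = 0.00362), which is 4.61-fold. On chow it read 7.76 and 6.83 in WT, 8.17, 7.85 and 6.41 in HET (F1, F2 and P1) and 6.79, 6.67 and 6.37 in KO. P1 was as low as the KO livers, and the chow difference against HET was -0.87 ± 0.38 (95% interval -1.69 to -0.05, adjusted p = 0.336). It depended on which HET livers were kept, being -1.40 and called without P1 (adjusted p = 0.0214), and 0.20 without F1 and F2 (adjusted p = 0.934), which left P1 as the only HET array on chow, assumed to vary like the other groups. Against WT on chow it was -0.69 ± 0.42 (adjusted p = 0.613). Over both diets the fall was -1.54 ± 0.27 (adjusted p = 0.00279). The age term moved it to -6.57 over both diets and to -5.02 on HFD, and gave a called -8.12 on chow (adjusted p = 0.0134). The larger HFD difference was not shown to differ from that on chow (interaction -1.33 ± 0.54, 95% interval -2.49 to -0.18, adjusted p = 0.438).

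Slc1a2 encodes a sodium-driven glutamate transporter, known from glia, that pericentral hepatocytes also carry. On chow it read 7.10 and 7.51 in WT, 7.28, 6.87 and 7.77 in HET and 6.96, 6.91 and 6.52 in KO livers, where HET F2 lay within the KO range. On HFD it read 7.58, 7.28 and 7.04 in HET and 6.56, 6.72 and 6.37 in KO livers, with no overlap. Over both diets the fall was -0.63 ± 0.16 (adjusted p = 0.023). This call was lost without KO I1 (adjusted p = 0.063), HET A2 (adjusted p = 0.0553) or KO C4 (adjusted p = 0.0604), and with age as a linear term the difference turned to 1.39 (adjusted p = 0.576). On HFD alone the difference was -0.75 ± 0.22 (adjusted p = 0.0577) and on chow -0.51 ± 0.22 (adjusted p = 0.336). The HFD value missed the threshold narrowly: it was called in 9 of 24 alternatives, among them array weights (adjusted p = 0.0307), centring (adjusted p = 0.0184) and leaving out HET F2 (adjusted p = 0.0361) or HET P1 (adjusted p = 0.028), and age as a linear term turned it to 0.38 (adjusted p = 0.82).

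Glul makes glutamine from glutamate and ammonia in the layer of cells next to the central vein. It read 11.26 and 11.76 in WT, 10.97, 10.87 and 11.77 in HET and 11.83, 11.74 and 11.50 in KO livers on chow. HFD-fed mice read 12.10, 11.77 and 11.34 in HET and 11.83, 11.996 and 11.51 in KO livers. The KO values lay inside the HET range on HFD and within or just above it on chow. The KO minus HET difference was 0.49 ± 0.25 on chow (95% interval -0.05 to 1.03, adjusted p = 0.432) and 0.05 ± 0.25 on HFD (95% interval -0.50 to 0.59, adjusted p = 0.947). Centring on gene medians turned the HFD value to -0.17. A second Glul probe set, of lower intensity, gave 0.41 on chow and -0.40 on HFD and was not called either.

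Oat, ornithine aminotransferase, turns ornithine toward glutamate in the same cells. It read 12.25 and 11.89 in WT, 12.39, 12.30 and 11.90 in HET and 12.10, 11.96 and 11.51 in KO livers on chow, and 11.90, 11.59 and 11.20 in HET and 11.22, 11.19 and 10.88 in KO livers on HFD. The KO minus HET difference was -0.34 ± 0.21 on chow (adjusted p = 0.536) and -0.47 ± 0.21 on HFD (adjusted p = 0.226), with overlapping ranges on both diets. Oat was the member with the most similar diet differences in both genotypes, -0.63 ± 0.21 in HET (adjusted p = 0.305) and -0.76 ± 0.21 in KO livers (adjusted p = 0.172), and in KO livers the HFD and chow ranges did not overlap. The ammonia and glutamate genes thus gave Rhbg higher, Slc1a2 lower over both diets, and Glul and Oat not called.

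**Figure D2:**
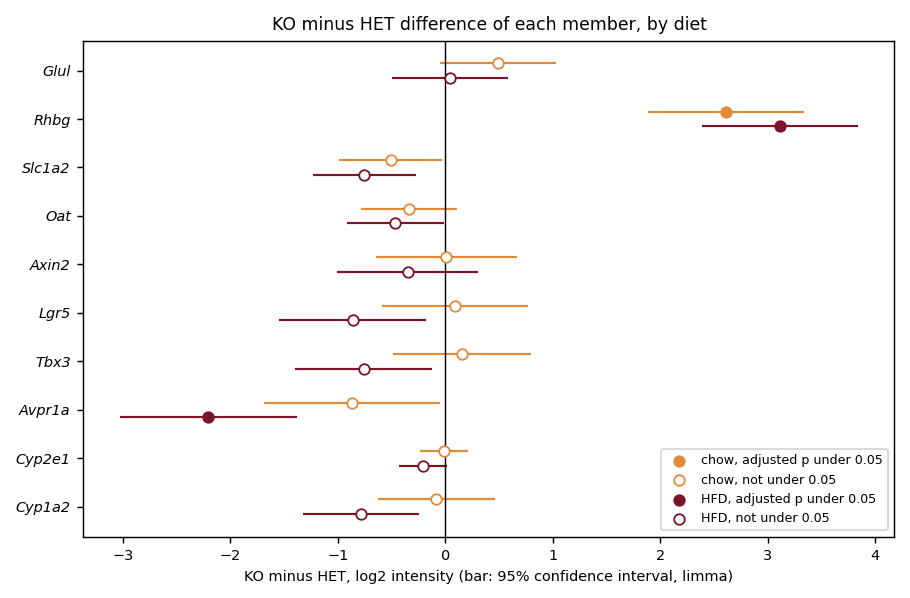
KO minus HET difference in log2 intensity (horizontal axis) of each pericentral gene on chow and on HFD; a bar is the 95% confidence interval and a filled point has an adjusted p under 0.05. Rhbg lies far to the right on both diets (2.61 and 3.11), Avpr1a farthest to the left on HFD (-2.20), and Lgr5, Tbx3 and Cyp1a2 near 0 on chow and near -0.8 on HFD.

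Axin2 and Lgr5 belong to the Wnt pathway itself. Axin2 is a scaffold of the complex that destroys beta-catenin, is switched on by beta-catenin and so feeds back on the signal, and Lgr5 is a receptor for R-spondins. Axin2 read 5.49 and 5.47 in WT, 5.73 to 6.06 in HET and 5.33 to 6.53 in KO livers on chow, and 5.50 to 6.75 in HET and 5.62 to 5.74 in KO livers on HFD. Its KO minus HET differences were 0.01 ± 0.30 on chow (adjusted p = 0.992) and -0.35 ± 0.30 on HFD (adjusted p = 0.573). The chow value turned to -0.11 with centring on gene medians and to -0.06 with a second quantile normalization. A second, dim Axin2 probe set (mean 2.89, near the array medians of 2.21 to 2.301) gave -0.80 on HFD and was called when every probe set was tested (adjusted p = 0.0412). Both probe sets were lower in KO livers on HFD, and the interval of the brighter one (-1.01 to 0.30) holds the value of the dim one.

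Lgr5 read 6.16 and 6.68 in WT, 6.49, 5.81 and 6.30 in HET and 6.78, 6.47 and 5.63 in KO livers on chow. HFD-fed mice read 6.71, 6.81 and 5.76 in HET livers A2, B1 and B2 and 5.68, 5.55 and 5.47 in KO livers. The KO livers on HFD were all below the HET livers, by a narrow margin from B2. The difference was -0.86 ± 0.31 on HFD (95% interval -1.54 to -0.18, adjusted p = 0.129) and 0.09 ± 0.31 on chow (adjusted p = 0.946), where centring turned it to -0.03. Without B2 the HFD difference was -1.20 and was called (adjusted p = 0.0341). A second, dim probe set (mean 3.02) gave -0.30 on HFD and was not called.

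Tbx3 encodes a T-box transcription factor downstream of beta-catenin in hepatocytes. It read 7.15 and 7.25 in WT, 7.68, 7.77 and 7.87 in HET and 8.495, 8.13 and 7.17 in KO livers on chow, and 8.47, 8.15 and 7.54 in HET and 7.37, 7.52 and 6.99 in KO livers on HFD. The KO chow livers spanned nearly the whole range of the gene, with I1 low and H1 the highest of all 14. Its KO minus HET difference was 0.16 ± 0.30 on chow (adjusted p = 0.885) and -0.76 ± 0.30 on HFD (95% interval -1.40 to -0.12, adjusted p = 0.157). The HET livers on chow were all above the WT livers, by 0.57 ± 0.33 (adjusted p = 0.999).

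Cyp2e1 and Cyp1a2 are cytochromes of the pericentral zone that oxidise ethanol and other small molecules, and aromatic amines and caffeine. Cyp2e1 lay between 12.93 and 13.29 in all 14 livers, close to the highest values on the arrays (13.47 to 13.77). It read 13.29, 13.21 and 13.16 in HET and 13.04, 13.01 and 12.99 in KO livers on HFD, a small but gapped difference of -0.21 ± 0.10 (adjusted p = 0.287). On chow the difference was -0.01 ± 0.10 (adjusted p = 0.978). Cyp1a2 read 11.26 and 11.60 in WT, 11.28, 10.97 and 11.48 in HET and 11.35, 11.48 and 10.65 in KO livers on chow. HFD-fed mice read 11.74, 11.45 and 11.14 in HET and 10.54, 11.10 and 10.34 in KO livers. The HFD difference was -0.78 ± 0.25 (95% interval -1.33 to -0.24, adjusted p = 0.0814) and that on chow -0.08 ± 0.25 (adjusted p = 0.938). It was called on HFD without KO I1 of the chow group (adjusted p = 0.047) or without KO C3 (adjusted p = 0.0413).

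Beyond single genes, KO minus HET values on HFD were negative for 8 of the 10 members, with a median of -0.61, while the median over all 22180 genes was -0.02. In 7 of 10 members the HET and KO ranges on HFD did not overlap, 6 of them with KO lower (Slc1a2, Lgr5, Tbx3, Avpr1a, Cyp2e1 and Cyp1a2) and Rhbg with KO higher. Among all genes the ranges did not overlap in 26.2%, with KO lower in 12.8%, and 7.56% were called. On chow the members split evenly, 5 higher and 5 lower, with a median of -0.0013 against -0.0094 over all genes, and the ranges were apart for Rhbg alone among the members, against 18.9% of all genes. With centring on gene medians 8 of 10 members were called on HFD, Rhbg higher and the others but Glul and Axin2 lower. Of all genes 4458 were then called. Since members share arrays and were named for a common zone, these counts describe them and are no test.

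Diet and the floxed copy by themselves moved no member past the threshold. In HET livers HFD minus chow called 0 of 10 members (0.198% of all genes were called), and 2 members, Rhbg and Oat, had an unadjusted p under 0.05 in limma, as did 10.2% of all genes. In KO livers 0 of 10 were called (0.316% of all genes), with Oat and Lgr5 (-0.73 ± 0.31, adjusted p = 0.419) under 0.05 unadjusted, as were 11.1% of all genes. The interaction of genotype and diet called 0 of 10 (0.0361% of all genes), with Avpr1a and Tbx3 (-0.92 ± 0.42, adjusted p = 0.501) under 0.05 unadjusted, as were 9.86% of all genes. Its sign was negative in 9 of the 10 members, Rhbg being the exception, with a median of -0.40 against 9.06e-04 over all genes. HET against WT on chow called 0 of 10 and 0% of all genes, and 0 members but 954 genes had an unadjusted p under 0.05. A second quantile normalization gave 1 called gene there, which was no member.

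Upstream sequence is shown for the 2 members that fell and for Cyp1a2, whose values correlated most with Slc1a2 among the members (r = 0.87 over the 14 arrays). RefSeq promoter sequences on GRCm38.p6 matched 7 of the 10 members by symbol, and the 250 bases before each start site were searched on both strands for a TCF/LEF motif, meaning the letters CTTTGAT, the variant CTTTGAA, the variant with T in both last places (CTTTGTT) and the remaining variant CTTTGTA. TCF/LEF proteins are the DNA-binding partners of beta-catenin. No promoter was matched for Rhbg, Lgr5 or Tbx3, so these members were not searched. A match occurred in 3 of the 7 (Slc1a2, Cyp2e1 and Cyp1a2) and in 14.8% of all 32851 promoter windows of the table. The core GCGTG bound by AHR, the dioxin receptor, occurred in 0 of the 7 and in 28.2% of all windows, and the HNF1 core GTTAAT in 0 of the 7 and 6.43%. The windows are Slc1a2 at chr2:102706188-102706437 (plus strand), Cyp1a2 at chr9:57683656-57683905 (minus strand) and Avpr1a at chr10:122448249-122448498 (plus strand). Each is printed 5′ to 3′ along the gene, with TCF/LEF matches in capitals. The match lies 207 bases before the start in Slc1a2 and 244 before it in Cyp1a2, and Avpr1a holds none in this window.
Slc1a2: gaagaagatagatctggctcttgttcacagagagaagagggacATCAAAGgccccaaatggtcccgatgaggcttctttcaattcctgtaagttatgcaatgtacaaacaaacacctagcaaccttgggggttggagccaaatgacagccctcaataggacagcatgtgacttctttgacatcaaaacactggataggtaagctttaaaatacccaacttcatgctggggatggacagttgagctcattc
Cyp1a2: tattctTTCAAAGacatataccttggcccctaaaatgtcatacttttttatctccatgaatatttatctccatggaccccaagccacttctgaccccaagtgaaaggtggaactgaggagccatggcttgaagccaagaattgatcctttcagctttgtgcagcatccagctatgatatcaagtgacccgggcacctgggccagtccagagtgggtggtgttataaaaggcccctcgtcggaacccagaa
Avpr1a: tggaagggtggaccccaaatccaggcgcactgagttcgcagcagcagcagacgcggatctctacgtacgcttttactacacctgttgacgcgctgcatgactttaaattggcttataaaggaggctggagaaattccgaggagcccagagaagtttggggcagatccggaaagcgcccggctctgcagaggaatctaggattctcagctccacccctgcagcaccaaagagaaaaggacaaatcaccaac

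Livers of the same group differed in a way that many members shared. After subtracting group means, 38 of the 45 pairs of members correlated positively over the 14 arrays, with a median r of 0.61. No such count was made for pairs of other genes, so the sharing is not shown to be particular to the members. Glul moved with Slc1a2 (r = 0.95) and Cyp2e1 (r = 0.89), and Axin2 with Tbx3 (r = 0.85). Avpr1a ran against Rhbg (r = -0.71), which rests largely on HET P1, with the highest Rhbg (7.04) and the lowest Avpr1a (6.41) of the HET livers. The opposition was not general within groups. Among KO livers on chow I1 was lowest for both genes, and among HET livers on HFD B2 was. All values of a pair come from the same arrays, which share RNA quality, labelling and time of sampling, and no p is given.

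**Figure D3:**
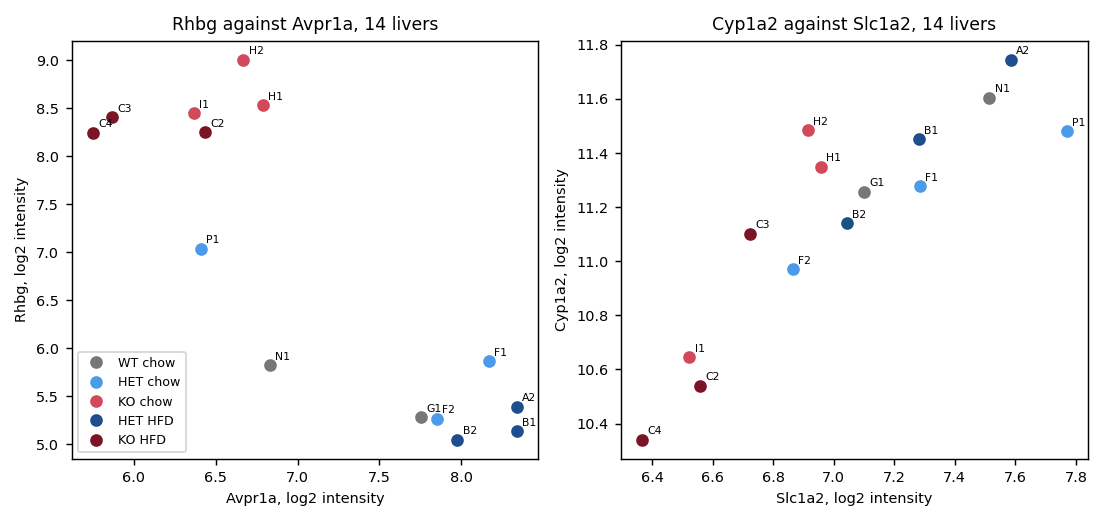
Log2 intensity of Rhbg against Avpr1a (left) and of Cyp1a2 against Slc1a2 (right) in the 14 livers, each point 1 mouse with its array name, coloured by group. On the left the KO livers lie at the top left, with Rhbg at 8.25 or more and Avpr1a at 6.79 or less, and HET P1 has a Rhbg value between them and the other livers; on the right the lowest livers are KO C4, C2 and I1.

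Genes whose pattern over the 14 arrays was most like that of a called member were found among 8042 others with a mean of at least 5. For Rhbg they were Nptn (r = 0.96), Rexo2 (r = 0.95) and Eif4e3 (r = 0.94), a likeness dominated by the gap between KO and other livers. For Avpr1a they were Rbm39 (r = 0.96), Slc19a2 (r = 0.94) and Fbxo11 (r = 0.93). Those for Slc1a2 were Slc25a13 (r = 0.93), Cyp27a1 (r = 0.91) and Wwp1 (r = 0.90).

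Genes of the Wnt pathway around the members are given list by list, to be read against the 7.56% of all genes called on HFD and 9.43% over both diets. Of 8 ligands, R-spondins and their export factor, 0 passed on HFD and on chow, but 5 of the 8 were dim (mean under 4). Over both diets Wnt5a, a ligand better known for beta-catenin-independent signalling, was higher (0.72 ± 0.20, adjusted p = 0.036), a call lost with either other scaling. Wnt5a was dim, with a mean of 2.46 over the arrays. Rspo3, the R-spondin of central vein endothelium, read 5.86 to 6.62 over the HET and KO livers, and Wnt9b, a ligand from the same cells, lay near the array medians (1.64 to 2.68); both were chosen after their values were seen. Of 11 receptors Fzd5 alone fell on HFD (-0.62 ± 0.14, adjusted p = 0.0156), and Lrp6 over both diets (-0.25 ± 0.07, adjusted p = 0.036). Of 15 genes of the destruction complex and its transcription factors 0 passed on HFD or chow, and Apc fell over both diets (-0.24 ± 0.07, adjusted p = 0.039). Of 14 inhibitors and turnover genes, 9 of which were dim, 2 fell on HFD, both feedback inhibitors that beta-catenin switches on. Notum, a secreted enzyme that inactivates Wnt, fell by 1.03 ± 0.28 (adjusted p = 0.0382), from 6.65 to 6.98 in HET livers to 5.58 to 6.09 in KO livers. Nkd1, an intracellular inhibitor, fell by 0.61 ± 0.16 (adjusted p = 0.0336). On chow their differences were -0.21 ± 0.28 (Notum, adjusted p = 0.813) and -0.0029 ± 0.16 (Nkd1, adjusted p = 0.997). Dkk3 was higher over both diets (0.55 ± 0.15, adjusted p = 0.0336), which did not hold with either other scaling.

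Other genes of the zone went both ways. Of 15 measured beta-catenin targets of liver outside the members, 3 rose and 2 fell on HFD (median -0.21, all genes -0.02). The cell cycle genes Ccnd1 (1.35 ± 0.26, adjusted p = 0.00682) and Myc (1.93 ± 0.49, adjusted p = 0.0301) and the coumarin hydroxylase Cyp2a5 (1.81 ± 0.49, adjusted p = 0.0396) rose, and Notum and Nkd1, already counted among the inhibitors, fell. The Cyp2a5 call was lost with a second quantile normalization. Of 24 pericentral genes, 3 of which (Rgn, Slc13a3 and Cyp2a5) are also in the target list, 6 rose with Cyp2a5 included and 2 fell on HFD (median -0.23). The glutathione transferases Gstm3 (2.79 ± 0.19, adjusted p = 4.24e-06) and Gstm1 (1.05 ± 0.14, adjusted p = 6.21e-04), the ectonucleotidase Nt5e (1.73 ± 0.24, adjusted p = 0.00108) and the fatty acid hydroxylase Cyp4a14 (1.85 ± 0.31, adjusted p = 0.00331) were higher. Cyp2c29 (-1.14 ± 0.18, adjusted p = 0.00233) and Cyp27a1, a bile acid enzyme (-0.54 ± 0.13, adjusted p = 0.0222), were lower. On chow 1 of the 24, Gstm3, was called (0.96 ± 0.19, adjusted p = 0.0221), and 0 of the 15 targets were.

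In the list of the opposite, periportal zone 5 of 21 fell and 2 rose on HFD (median -0.32), and on chow 3 fell and 0 rose (median -0.22). Among all 22180 genes 456 fell and 1221 rose on HFD, or 3543 and 915 with centring on gene medians. On chow 106 fell and 320 rose. The urea cycle enzymes Asl (-0.60 ± 0.10, adjusted p = 0.00305) and Cps1 (-0.53 ± 0.09, adjusted p = 0.00433) fell on HFD, and Asl also on chow (-0.46 ± 0.10, adjusted p = 0.0358). Larger called falls on HFD were those of Etnppl (-1.28, and -1.81 on chow) and Agxt (-1.15). Aldh1b1 (1.27) and Hsd17b13 (0.45) were the genes that rose on HFD, and the Hsd17b13 call was lost with centring. Among 17 measured partners of the ammonia and glutamate members, the arginine transporter Slc7a2 fell on HFD (-0.66 ± 0.13, adjusted p = 0.00713) and the proline and ornithine enzyme Aldh18a1 rose (1.51 ± 0.31, adjusted p = 0.00893), with 0 called on chow. Aldh18a1 was dim, at 1.88 to 2.81 in HET and 3.51 to 4.26 in KO livers on HFD. AHR is the dioxin receptor known to switch on Cyp1a2. In its list, Nqo1 (3.38 ± 0.22, adjusted p = 2.35e-06) and Cyp1b1 (1.15 ± 0.28, adjusted p = 0.0247) rose on HFD among 7 measured. Cyp1b1 was dim (mean 3.23), and its call was lost with a second quantile normalization. The list's median on HFD was 4.4e-04. Not called there were Ahr, averaging 8.70 in HET and 7.98 in KO livers, Ahrr (1.73 and 1.40), Arnt (7.96 and 7.92) and Tiparp (5.88 in both). Cyp1a1, another cytochrome under AHR, was dim, at 1.83 to 2.29 in HET and 2.35 to 3.59 in KO livers on HFD, and its difference was not called (adjusted p = 0.0632).

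**Figure D4:**
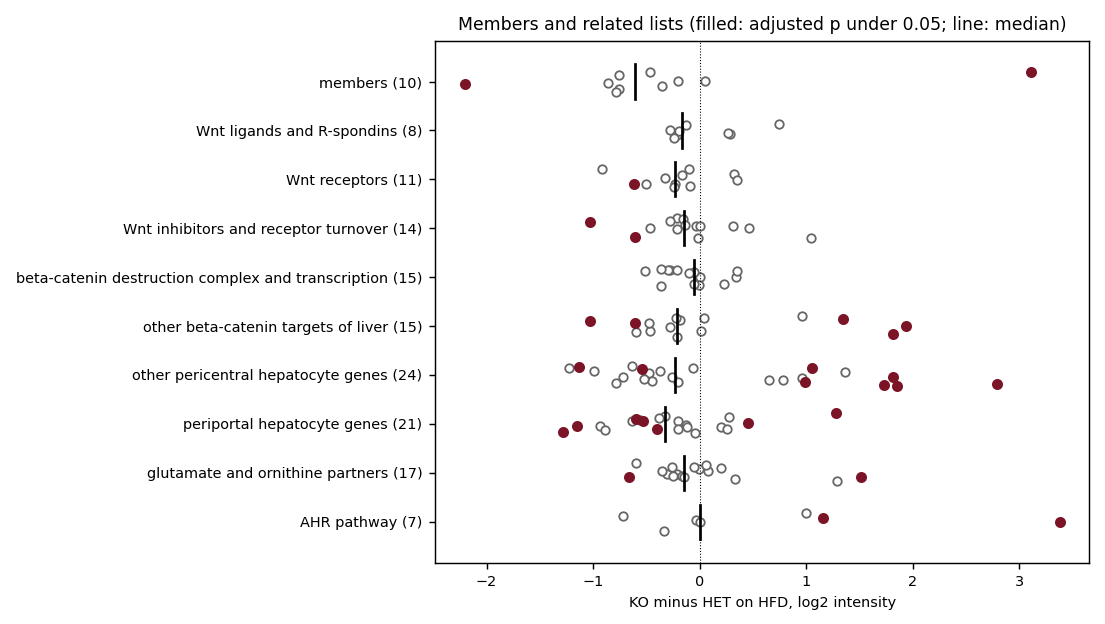
KO minus HET difference on HFD in log2 intensity (horizontal axis) for the 10 members and 9 related gene lists, with the number of measured genes in brackets; each point is a gene, filled where the adjusted p is under 0.05, and a line is the list's median. The members' median of -0.61 lies left of the medians of the other lists, of which the periportal list is the lowest at -0.32, and filled points lie on both sides of 0 for the members, the beta-catenin targets, the pericentral and periportal genes and the glutamate and ornithine partners.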

How the data were processed

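Liver RNA of 14 mice was measured on Affymetrix whole-transcript arrays, 1 array per mouse, from 400 ng of total RNA per the labels. The deposited values are log2 intensities, and their normalization is taken to be RMA, which the submitters' processing notes name beside limma without versions or settings. Array medians over all 41345 probe sets were 2.21 to 2.301. Centring used the median of the 22180 genes of each array instead. Scanner files were not used here, so background correction and probe summary were not varied. Of 41345 probe sets 23521 had 1 symbol, 1814 several and 16010 none; the brightest probe set on average stood for each of 22180 genes. limma 3.58.1 in R 4.3.3 was fitted with 1 mean per group to all 14 arrays (lmFit, eBayes, 9 residual degrees of freedom), with Benjamini-Hochberg adjustment over all genes in each contrast. No filter on level was used. The fit was tested on simulated data. P-values set each difference of means against the spread between mice within groups, pooled over all groups and moderated by limma.

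The members, the related lists and the tests were chosen with earlier results of these data known. Besides the members, the text names up to 4 genes per list with the smallest p over both diets, genes called in the comparison under discussion up to 6 per list, and Lmna. The lists were Wnt ligands and R-spondins, Wnt receptors, Wnt inhibitors and receptor turnover, the destruction complex and transcription, other beta-catenin targets, other pericentral genes, periportal genes, glutamate and ornithine partners, the AHR pathway, and markers of hepatocytes, endothelium, stellate cells, macrophages, cholangiocytes and lymphocytes, of which 189 of 208 entries were measured. Genes most like a called member were the 3 with the highest Pearson r. Alternatives covered normalization, array weights, the prior, dim genes, probe sets, age, the letter of the array name, the control group and single arrays left out. Genome build and aligned probe positions of the array are not given in the sources used here, nor is the floxed exon.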

Additional observations from a re-analysis of the deposited data

Results flagged for a closer look

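For 2 genes of the related lists the KO minus HET difference itself differed between the diets, by the interaction term of limma. Gstm3, a pericentral glutathione transferase, differed by 1.82 ± 0.27 log2 units more on HFD than on chow (adjusted p = 0.045). Its KO mean was nearly the same on both diets (10.95 on chow, 10.96 on HFD), while its HET mean was lower on HFD (9.98 and 8.17). Nqo1, a quinone reductase of the AHR list, differed by 2.05 ± 0.31 more on HFD (adjusted p = 0.045). From chow to HFD its HET mean went from 6.54 to 5.21 and its KO mean from 7.86 to 8.58. No member met this criterion, and the KO mice differed from HET mice in age by more on chow than on HFD.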

How the results depend on the processing

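Of 194 counts of called members over 25 alternatives 188 stayed within 1.5 times the reported count and 6 moved. The calls of Rhbg (each KO comparison) and Avpr1a (on HFD and over both diets) were kept in every alternative run, but their sizes moved: Rhbg ranged from 1.63 to 8.31 on chow, 2.89 to 5.33 on HFD, 2.37 to 6.82 over both diets and 2.81 to 8.73 against WT, and Avpr1a from -5.02 to -2.07 on HFD and -6.57 to -1.003 over both diets, with the age term giving the largest size each time. With age as a linear term 2 members were called for KO against HET on chow and 2 for KO against WT. Age nearly coincides with group, and this term turned Slc1a2 to 0.38 and Cyp2e1 to 0.24 on HFD, Slc1a2 to 1.39, Cyp2e1 to 0.68 and Cyp1a2 to 0.74 over both diets, and Rhbg for HFD minus chow in HET to 1.08, with none of these 6 called. Centring on gene medians called 8 members on HFD and 6 over both diets. Centring also turned the split of all calls on HFD from 1221 higher and 456 lower to 915 and 3543, over both diets from 1447 and 644 to 1059 and 4906, on chow from 320 and 106 to 248 and 261, against WT from 276 and 91 to 213 and 147, and for diet in KO from 46 and 24 to 34 and 43. A second quantile normalization gave 954 and 713 on HFD and 1208 and 989 over both diets. Without HET F1 and F2 together, which leaves 1 HET array on chow (P1) assumed to vary like the other groups, Avpr1a on chow was 0.20, and 1 member, Rhbg, was called for HFD minus chow in HET. Leaving out single arrays gave 1 to 2 called members on chow, 2 to 3 on HFD, 2 to 3 over both diets, 1 against WT, and 0 for HET against WT, for diet in either genotype and for the interaction. No paired analysis was possible because the numbers in the array names repeat within groups and mark no animal, litter or day shared between groups. With 2 or 3 arrays in a group, even differences of several standard errors could go uncalled. In limma Slc1a2 on HFD was not called at -0.75 ± 0.22 (adjusted p = 0.0577), nor was Cyp1a2 at -0.78 ± 0.25 (adjusted p = 0.0814). A member that was not called is thus not shown to be unchanged.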
